A study of Homo sapiens with 16 samples.

Results

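The mRNAs of 28 genes that encode proteins of the small ribosomal subunit were followed in 16 RNA libraries from H69 and H69M cells. The members were chosen by gene symbol as proteins of the cytosolic small subunit, not by a cut on their values. Earlier results of these data were known at that point, and the 28 are not all the genes of that subunit. All 28 of the 56832 rows of the count table that carry these symbols passed the filter on low counts. H69 is an established small cell lung cancer line; the labels call H69M a small cell lung cancer line as well and do not say how it was obtained. Each line carried, by stable lentiviral infection, either the shRNA sheIF6, which targets EIF6, or the control shNTC, and no label says whether these were clones or pools or gives a time after infection. From each, RNA was taken from the cytoplasmic lysate and from the polysomal fractions of a sucrose gradient, so line, shRNA and fraction make 8 groups of 2 libraries. Nothing in the labels says that the 2 libraries of a group were grown separately; p-values therefore cover the spread between these libraries and no more.

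Proteins of the small subunit are used in equal numbers, and with ribosomal RNA they form the particle that binds mRNA and reads its codons. Their mRNAs belong to the TOP family: transcripts that begin with a C and a run of pyrimidines, which mTOR signalling and the protein LARP1 use to move them into or out of polysomes as a group. The EIF6 protein binds the large subunit, and while bound it blocks the union of both subunits. A polysome is an mRNA with several ribosomes on it, and a short coding sequence has room for few of them.

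The start of the transcript is the feature these mRNAs share, so the 30 bases around the RefSeq start (15 before and 15 from the start on, GRCh38.p14, gene strand only) are shown for 8 members whose values carry the results below and for RPS18, whose counts scattered widely between replicates. Capitals mark the longest unbroken run of C and T.
FAU (chr11:65122120-65122149, minus strand): cgccctcgCTTCTTCCTCTTTCTCgactcc
RPS3 (chr11:75399503-75399532, plus strand): gcccgcgagccaCTTCCTTTCCTTTCagcg
RPS9 (chr19:54200843-54200872, plus strand): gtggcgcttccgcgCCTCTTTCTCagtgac
RPS7 (chr2:3575245-3575274, plus strand): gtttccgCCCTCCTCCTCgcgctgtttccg
RPS12 (chr6:132814554-132814583, plus strand): gcgtgcggatgaggCCTCTTTCCCTgccgc
RPS21 (chr20:62387088-62387117, plus strand): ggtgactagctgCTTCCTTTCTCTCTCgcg
RPS28 (chr19:8321481-8321510, plus strand): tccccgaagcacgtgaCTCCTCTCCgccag
RPS29 (chr14:49598696-49598725, minus strand): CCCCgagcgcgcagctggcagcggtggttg
RPS18 (chr6:33272060-33272089, plus strand): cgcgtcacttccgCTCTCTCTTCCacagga
RefSeq start windows were found for 25 of the 28 members, and 21 of these (84.0%) held a run of at least 8 pyrimidines in at least 1 window. The share was 81.6% in 38 large-subunit ribosomal protein genes and 16.5% in all 27305 genes with a window. Among the 9 shown, RPS29 had the shortest run, of 4 bases, and FAU the longest, of 16. Runs of 9 to 15 bases stood both in members that rose in polysomal against cytoplasmic RNA of H69 (RPS3, RPS7, RPS9) and in members that fell there or in H69M (RPS12, RPS21, RPS28). A run describes these letters and does not show that a start is used.

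Library totals ran from 36005326 to 87269772 counts, and the 28 members took 0.571 to 1.89% of them. The highest share and the deepest total fell in the same library, H69M sheIF6 cytoplasmic replicate 1; its partner held 1.10% at 60662256 counts. EIF6 was lower in both sheIF6 libraries than in both shNTC libraries of the same line and fraction. Its log2 changes were -0.78 and -0.84 in H69 and -0.52 and -1.24 in H69M (cytoplasmic, then polysomal), and none passed after adjustment. The margin was narrow in H69M cytoplasmic RNA, with 203.9 and 165.1 CPM in shNTC and 161.4 and 96.33 in sheIF6 (replicates 1 and 2). Summed neuroendocrine markers (9 genes) stood at 2125 to 4297 CPM in H69 and 135 to 640 in H69M, and 7 non-neuroendocrine markers at 87.3 to 261 CPM and 3890 to 5906. Much of these sums came from INSM1 (857 to 2350 CPM in H69) and VIM (1910 to 4690 in H69M). The lines overlapped in NCAM1 (197 to 274 CPM in H69, 112 to 240 in H69M) and in CD44 (77.9 to 253 and 185 to 673). VIM, YAP1, AXL, REST and CAV1 were at 0 in at least 1 H69 library and no marker was at 0 in all libraries of a line; the neuroendocrine gene INSM1 ranged from 1.15 to 256 CPM among H69M libraries.

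Levels are read counts scaled to library size (CPM) after TMM scaling, and values of a group are given for replicate 1, then replicate 2. Per kilobase of coding sequence, averaged over the 16 libraries, RPS16 stood highest at 1433 CPM, followed by RPS3 at 1373 and RPS15 at 1319. RPS16 and RPS15 belong to the head of the subunit, and RPS3 lines the channel by which mRNA enters. The order was loose: none of the 27 pairs of neighbours in it kept its order in all 16 libraries. RPS16 itself ran from 606 to 2871 CPM per kilobase between libraries. The 3 lowest were RPS7 at 318, RPS18 at 109 and RPS9 at 41.6 CPM per kilobase of coding sequence.

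**Figure D1:**
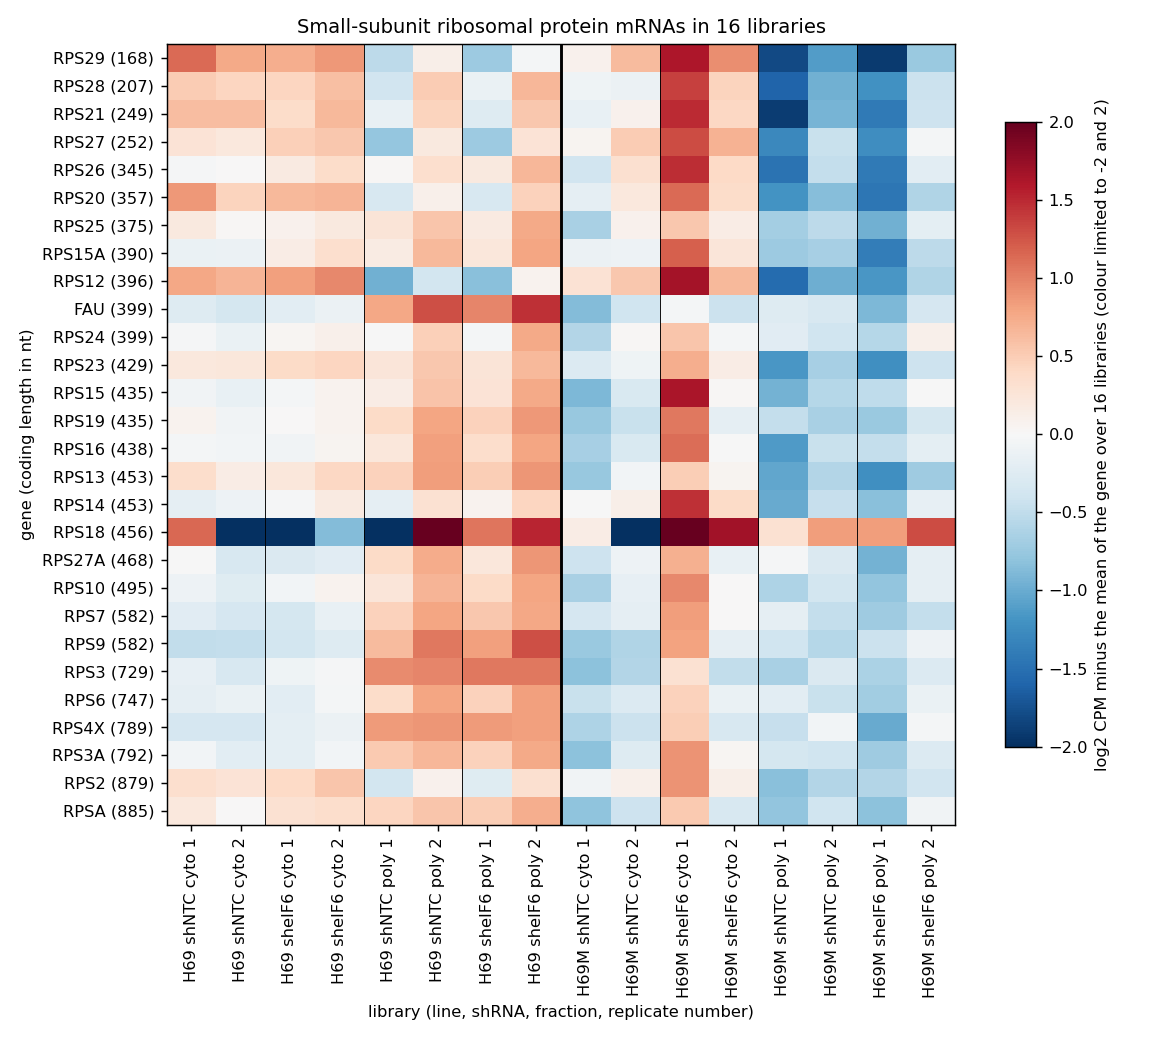
Level of each of the 28 members (rows, ordered by coding length) in each of the 16 libraries (columns), as log2 CPM minus the mean of the gene over all libraries; red is above and blue below that mean. Polysomal columns of H69M are mostly blue, H69M sheIF6 cytoplasmic replicate 1 is the reddest column, and RPS18 goes its own way.

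RPS18, whose protein sits in the head of the subunit where it touches the large one, was the most erratic member. Its row held 1981 and 111 counts in H69 shNTC cytoplasmic RNA, 103 and 468 under sheIF6, 6 and 5025 in shNTC polysomal RNA and 1446 and 2057 under sheIF6. In H69M it held 778 and 131, 27418 and 3594, 855 and 1243, and 1347 and 1926 counts in the same order of groups. Its replicates lay far apart in several groups, with 6 and 5025 counts in 1 of them, while RPS16 ran from 10520 to 105457 over the same libraries. The row of the processed pseudogene RPS18P12 held 124 to 2523 counts and exceeded that of RPS18 in 4 libraries. RPS18 lies at chr6:33272010-33276510 (GRCh38). Where a change of RPS18 is printed below no result is drawn from it, although it counts among the 28. RPS9, at chr19:54200742-54249003, held 516 to 3187 counts.

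**Figure D2:**
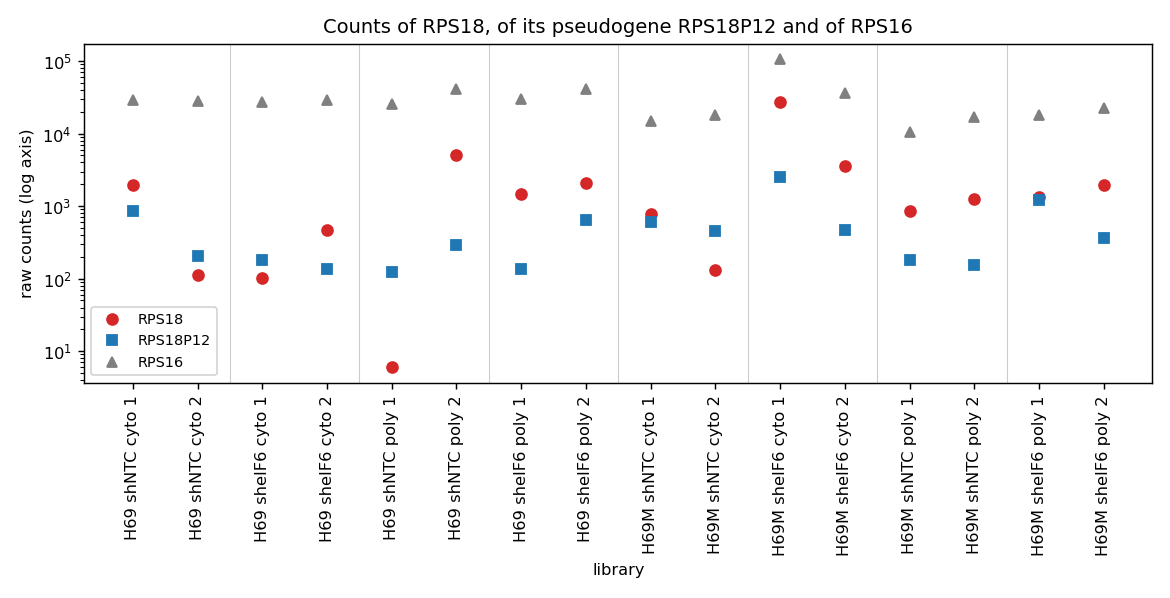
Raw counts (log axis) of RPS18, of its pseudogene RPS18P12 and of RPS16 in the 16 libraries. RPS18 ranges from 6 to 27418 counts and its replicates lie far apart in several groups, while RPS16 stays between 10520 and 105457.

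Several members share sequence or position with another gene, and the strand setting of the counting is not given in the sources used here. Of the exon length of RPS10, 77.0% lies in the readthrough gene RPS10-NUDT3 on the same strand, and 47.0% of that of FAU lies in a gene on the same strand (MRPL49 and SYVN1 overlap it). RPS25 (36.6%), RPS28 (27.5%), RPS3A (22.4%) and RPS6 (20.3%) overlap genes on the opposite strand, and no other member overlaps by more than 9.9%. Rows of named pseudogenes held counts worth 27.4% of those of RPS2, 17.8% of RPS7 and 17.6% of RPS18, and at most 2.80% for any other member. For RPS18 this share ran from 5.77 to 2067% between libraries. Values of these genes are uncertain, and the shares do not say by how much.

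The shNTC libraries of H69M and H69 compare the lines without knockdown. In polysomal RNA all 28 members stood lower in H69M, with a median log2 difference of -1.10 against 0.02 for all 23100 genes tested. Of them 18 passed and fell (edgeR quasi-likelihood test, Benjamini-Hochberg adjusted p at most 0.05), beside 15.6% of all genes called lower and 18.4% called higher, and no member rose. In 26 of 28 the libraries of the lines did not overlap and H69M was lower, beside 31.2% of all genes. The sums of neuroendocrine and non-neuroendocrine markers given above differ between the same lines, and their part in this result was not tested. In bulk RNA, fewer cells of a type and less RNA per cell cannot be told apart.

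RPS3 stood at 1728 and 1765 CPM in polysomal RNA of H69 and at 575 and 737 in that of H69M. FAU, which encodes a ubiquitin-like fusion from which a small-subunit protein is cut, stood at 565 and 809 and at 276 and 265 CPM. For RPS13 the values were 303 and 391 against 107 and 147 CPM. In each of these 3 both H69 libraries were above both H69M libraries. By edgeR the log2 changes were -1.41 (SE 0.266, adjusted p = 0.00149) for RPS3, -1.34 (SE 0.277, adjusted p = 0.00263) for FAU and -1.45 (SE 0.298, adjusted p = 0.0026) for RPS13.

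RPS23, which reaches into the decoding centre, stood at 474 and 586 CPM in H69 and 180.1 and 252 in H69M. RPS9, which helps to keep reading accurate, stood at 33.6 and 44.8 against 16.5 and 14.7 CPM. RPS16 stood at 683 and 1029 against 266 and 426 CPM. None of the 3 overlapped between the lines. Their edgeR log2 changes were -1.29 (SE 0.299, adjusted p = 0.00537), -1.33 (SE 0.312, adjusted p = 0.00576) and -1.31 (SE 0.359, adjusted p = 0.0139). The other 12 that fell were RPSA, RPS3A, RPS4X, RPS6, RPS7, RPS10, RPS15A, RPS19, RPS21, RPS25, RPS28 and RPS29, with log2 changes from -1.51 (RPS21) to -0.91 (RPS6). The 10 that did not pass ran from -1.24 for RPS18 to -0.57 for RPS24, which encodes a protein altered in some cases of Diamond-Blackfan anaemia.

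The same contrast in sheIF6 cells is between other libraries and gave 17 members that fell, beside 17.3% of all genes called lower; all 28 again stood lower, with a median of -1.07 against 0.02. FAU stood at 649 and 906 CPM in H69 and 177 and 260 in H69M, RPS3 at 1880 and 1867 against 579 and 743. RPS13 stood at 311 and 405 against 94.5 and 134 CPM. RPS7 stood at 252 and 298 against 106 and 125 CPM, and RPS15A, a protein of the body, at 346 and 511 against 114 and 204. H69 was above H69M in every one of these pairs of groups, and 24 of the 28 members did not overlap, beside 33.9% of all genes. The edgeR log2 changes were -1.83 (SE 0.281, adjusted p = 0.000348) for FAU, -1.50 (SE 0.267, adjusted p = 0.000945) for RPS3 and -1.65 (SE 0.299, adjusted p = 0.00112) for RPS13. They were -1.25 (SE 0.264, adjusted p = 0.00293) for RPS7 and -1.43 (SE 0.342, adjusted p = 0.00608) for RPS15A. RPS9, at 38.2 and 52.9 against 16.1 and 20.2 CPM, fell by 1.33 on the log2 scale (edgeR adjusted p = 0.00546).

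With the replicate number as a block within each line, RPS26, which faces the mRNA exit, joined the fallen members in both contrasts (19 in shNTC beside 20.1% of all genes, adjusted p = 0.0453; 18 in sheIF6 beside 21.1%, adjusted p = 0.0344). In shNTC the members' median was -1.20 without H69 shNTC polysomal replicate 1 and -0.88 without its replicate 2. It was -0.98 without H69M shNTC polysomal replicate 1 and -1.20 without its replicate 2. In sheIF6 it was -0.80 without H69 sheIF6 polysomal replicate 2 and -0.76 without H69M sheIF6 polysomal replicate 1. Fewer members and fewer of all genes were called in each of these fits. RPS3, RPS13 and FAU were called in both contrasts whichever of the 16 libraries was left out, as were RPS9 in shNTC and RPS7 in sheIF6.

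**Figure D3:**
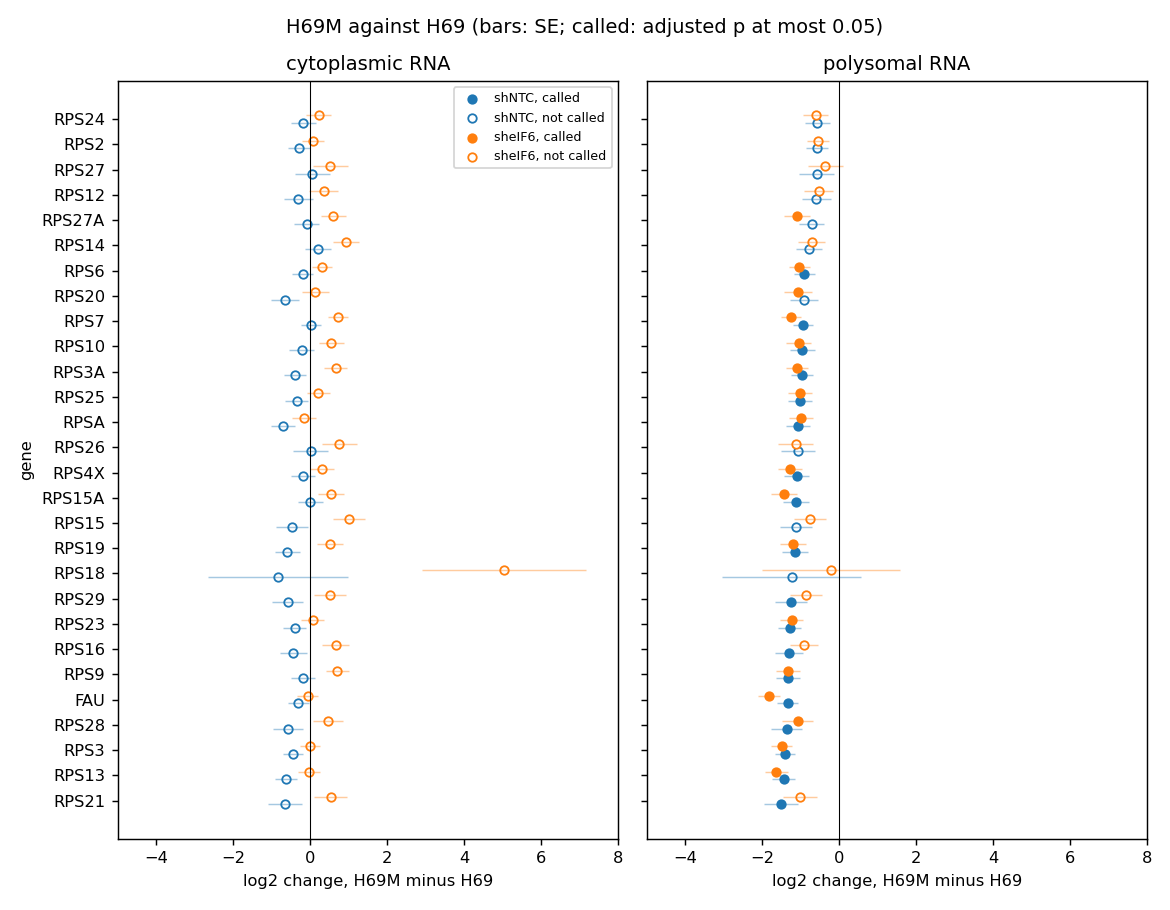
Log2 difference of H69M minus H69 (horizontal) for each of the 28 members (vertical, ordered by the shNTC polysomal value) in cytoplasmic (left) and polysomal RNA (right), for shNTC and sheIF6 libraries; bars are SE and filled points passed at an adjusted p of at most 0.05. In polysomal RNA all points lie below 0, in cytoplasmic RNA they lie on both sides and none is filled.

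In cytoplasmic RNA no member passed between the lines. Among control libraries the median log2 difference of the 28 members was -0.33 against -0.01 for all genes, and 23 were negative. As each of the 4 libraries was left out that median ran from -0.51 to -0.15. By edgeR 1 member (RPSA) had an unadjusted p of at most 0.05 and none an adjusted one, beside 14.1% of all genes called lower. RPSA, also known as the laminin receptor, stood at 673 and 586 CPM in H69 and 335 and 438 in H69M, a log2 difference of -0.70 (SE 0.31, adjusted p = 0.107). RPS14, a protein of the platform, stood at 336 and 355 against 379 and 414 CPM (0.20), and RPS27, a zinc-binding protein, at 191 and 182 against 164 and 225 (0.06). RPSA was lower and RPS14 higher in both H69M libraries, and RPS27 overlapped. In 18 of 28 members both H69M libraries were lower, beside 34.7% of all genes, and in 1 they were higher. DESeq2 and limma-voom called none as well; scaling by library totals alone called 3 (RPSA, RPS3 and RPS13) and moved the median of all genes to -0.14 and that of the members to -0.48.

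Under sheIF6 the cytoplasmic difference had the opposite sign, with a median of 0.52 against 0.02 for all genes; 25 members were positive, 6 had an unadjusted edgeR p of at most 0.05, and none passed, beside 16.9% of all genes called higher. RPS7 stood at 136 and 158 CPM in H69 and 310.3 and 174 in H69M, and RPS14 at 377 and 435 against 1056 and 497. RPS15 stood at 503 and 545 against 1602 and 527 CPM, RPSA at 723 and 744 against 842 and 466, and FAU at 286 and 304 against 319.9 and 245. In each of them the first H69M library was above the second. The edgeR log2 differences were 0.72 (SE 0.261, adjusted p = 0.0516) for RPS7 and 0.94 (SE 0.346, adjusted p = 0.0561) for RPS14, and 1.02 for RPS15, -0.16 for RPSA and -0.06 for FAU. RPS7 and RPS14 passed with the block within each line (adjusted p = 0.0403 and 0.0414, beside 20.4% of all genes higher). Leaving out the first H69M library gave a median of -0.003 with 14 of 28 positive, and leaving out the second gave 0.85 with all 28 positive.

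Polysomal against cytoplasmic RNA within a line and shRNA gives the share of an mRNA that sits on several ribosomes, relative to other mRNAs; it is called loading here. In H69 control cells the members were spread to both sides: 5 rose in polysomal RNA (RPS3, RPS4X, RPS7, RPS9 and FAU) and 1 fell (RPS12), beside 6.63% of all genes called higher and 5.20% lower. The median log2 change was 0.44 against -0.14 for all genes, and 19 members did not overlap and were higher, 6 were lower, beside 23.0% and 32.3% of all genes.

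FAU stood at 275 and 257 CPM in cytoplasmic and 565 and 809 in polysomal RNA of H69 control cells. RPS3 stood at 803 and 723 against 1728 and 1765 CPM, and RPS9 at 15.4 and 15.5 against 33.6 and 44.8. RPS4X, the X-linked form of its protein, stood at 586 and 588 against 1339 and 1362 CPM, and RPS7 at 148 and 138 against 238 and 300.1. In all 5 both polysomal libraries lay above both cytoplasmic libraries. The edgeR log2 changes were 1.37 (SE 0.277, adjusted p = 0.00831) for FAU, 1.19 (SE 0.264, adjusted p = 0.0123) for RPS3 and 1.34 (SE 0.311, adjusted p = 0.0154) for RPS9. They were 1.20 (SE 0.321, adjusted p = 0.0294) for RPS4X and 0.91 (SE 0.262, adjusted p = 0.0402) for RPS7.

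RPS12, a protein of the beak of the subunit, went the other way, with 376 and 352 CPM in cytoplasmic and 114 and 171 in polysomal RNA. The polysomal libraries held less than the cytoplasmic ones without overlap, and the edgeR log2 change was -1.35 (SE 0.38, adjusted p = 0.0365). RPS29, a small zinc-binding protein of the head, stood at 115 and 88.3 against 36.4 and 56.5 CPM, a log2 change of -1.13 that passed when the block was added (adjusted p = 0.0467; 9.01% of all genes lower). In sheIF6 cells of H69, FAU, RPS3, RPS7 and RPS9 rose, beside 5.66% of all genes called higher, with a median of 0.37 against -0.11 for all genes. FAU stood at 286 and 304 against 649 and 906 CPM, RPS9 at 16.8 and 18.1 against 38.2 and 52.9, RPS3 at 851 and 891 against 1880 and 1867 and RPS7 at 136 and 158 against 252 and 298. Their edgeR log2 changes of 1.40, 1.38, 1.10 and 0.90 had adjusted p-values of 0.0099, 0.0166, 0.0211 and 0.0472. RPS12, at 388 and 429 against 123 and 230.5 CPM (-1.21), passed when the block was added (adjusted p = 0.0327; 7.20% of all genes lower).

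These calls depended on single libraries, and no member kept its call in every omission. With any 1 of the 4 libraries of a comparison left out, 1 of its groups holds 1 library. Fewer members and fewer of all genes were then called, so the lost calls are not particular to the members. Scaling by library totals alone moved the median of all genes from -0.14 to -0.49 in shNTC and from -0.11 to -0.44 in sheIF6, that of the members to 0.11 and 0.05, and the calls to 3 higher and 3 lower in shNTC and 3 higher and 2 lower in sheIF6. A fit of H69 alone called 12 members in shNTC and 11 in sheIF6. Its share of all genes is not given here, so these counts are not read as a result about the members. The members' median stayed positive as each of the 4 libraries was left out, at 0.24 to 0.63 in shNTC and 0.17 to 0.66 in sheIF6.

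In H69M control cells no member rose in polysomal RNA and 2 fell, RPS12 and RPS29, beside 2.16% of all genes called higher and 2.54% lower. The median log2 change was -0.22 against 0.00 for all genes, and 18 of 28 were negative. RPS12 stood at 269.8 and 321 CPM in cytoplasmic and 76.0 and 112 in polysomal RNA, and RPS29 at 55.1 and 80.7 against 14.99 and 24.0. Both were lower in each polysomal library than in each cytoplasmic one, with edgeR log2 changes of -1.65 (SE 0.383, adjusted p = 0.0311) and -1.80 (SE 0.42, adjusted p = 0.0316). FAU, at 179.9 and 249 against 276 and 265 CPM, had the highest log2 change after RPS18, at 0.33, and did not pass. Both calls were lost without any 1 of the 4 libraries of H69M shNTC, and without either H69 sheIF6 cytoplasmic library. Fewer of all genes were called in each of these fits as well. Library totals as the scale moved the median of all genes to -0.25 and that of the members to -0.48, and called 5 lower (RPS12, RPS20, RPS21, RPS23 and RPS29). The sign of the members' median rested on 1 library: it was 0.04 with 15 of 28 positive without shNTC cytoplasmic replicate 2, and -0.43 with 5 positive without replicate 1. A fit of H69M alone called none.

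Under sheIF6 all 28 members stood lower in polysomal than in cytoplasmic RNA of H69M, with a median of -1.08 against -0.02 for all genes, and 10 fell beside 2.26% of all genes. A fit of H69M alone called 0 of them and 1 of all genes. In 21 both polysomal libraries were below both cytoplasmic ones, beside 26.2% of all genes. Genes with a short coding sequence stood lower there in general. At most 300 nt, the median was -0.98 for all genes and -1.81 for 4 members. Above 300 and up to 500 nt it was -0.65 for all genes and -1.24 for 16 members. The 8 members over 500 nt had -0.62, beside -0.19 for all genes above 500 and up to 1000 nt. All genes over 2000 nt had 0.43. Whether the members' fall goes beyond that of coding length was not tested. The 10 that fell were RPS7, RPS12, RPS13, RPS14, RPS15A, RPS20, RPS21, RPS23, RPS28 and RPS29. RPS29 stood at 161 and 99.7 CPM in cytoplasmic and 13.9 and 31.3 in polysomal RNA, and RPS12 at 698 and 344 against 98.5 and 146. RPS15A stood at 673 and 348 against 114 and 204 CPM, RPS20, a protein of the head, at 618 and 362 against 103 and 186. RPS28, which lies by the mRNA exit, stood at 285 and 150 against 47.6 and 82.2 CPM, and RPS14 at 1056 and 497 against 215 and 342. In each the first cytoplasmic library was the highest and the first polysomal library the lowest of the 4, and the fractions did not overlap. The edgeR log2 changes were -2.53 (SE 0.43, adjusted p = 0.00924) for RPS29, -2.09 (SE 0.389, adjusted p = 0.0128) for RPS12 and -1.68 (SE 0.344, adjusted p = 0.0197) for RPS15A. They were -1.77 (SE 0.366, adjusted p = 0.0206) for RPS20, -1.74 (SE 0.405, adjusted p = 0.0329) for RPS28 and -1.48 (SE 0.35, adjusted p = 0.0353) for RPS14.

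The block within each line raised the count to 13, beside 4.71% of all genes, adding RPS2, RPS26 and RPS27. This result rests on the libraries numbered 1: between same-numbered libraries the members' median difference was -1.74 for number 1 and -0.37 for number 2, where 21 of 28 were negative. None passed without H69M sheIF6 cytoplasmic replicate 1 or polysomal replicate 1, 15 without cytoplasmic replicate 2, 5 without polysomal replicate 2 and 4 without any 1 of the H69 cytoplasmic libraries. The median ran from -1.45 to -0.60 as each of the 4 libraries was left out.

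In both lines and with both shRNAs, loading was higher in members with a longer coding sequence. Coding length here is the length of the protein-coding part of the principal GENCODE v29 transcript. The 4 members of at most 300 nt (RPS21, RPS27, RPS28 and RPS29) had median log2 changes of -0.45 in H69 shNTC and -1.22 in H69M shNTC. The 16 above 300 and up to 500 nt had medians of 0.45 and -0.32, and the 8 over 500 nt 0.83 and 0.08. In sheIF6 cells the same 3 classes had -0.49, 0.37 and 0.84 in H69 and -1.81, -1.24 and -0.62 in H69M. Spearman's rho between coding length and log2 change was 0.62, 0.58, 0.70 and 0.61 over the 28 members (H69 shNTC, H69 sheIF6, H69M shNTC, H69M sheIF6), and 0.71 to 0.86 over 47 large-subunit members. These are descriptions over genes of the same libraries, and members of the same library are no independent points.

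Members that depart from this order are FAU, with 399 nt, which was the highest of its class after RPS18 in H69, and RPS12, with 396 nt. Leaving RPS18 aside, RPS12 was the lowest of its class in both lines and with both shRNAs. RPS2, with 879 nt and a protein that lines the mRNA entry, stood at -0.42 in H69 shNTC and -0.71 in H69M shNTC, the lowest of the 8 long members in both. Among all genes with a coding length, those of at most 300 nt had a median of -0.33 in H69 shNTC and -0.66 in H69M shNTC. The medians of the classes up to 500 nt and up to 1000 nt were 0.03 and 0.23 in H69 shNTC and -0.34 and 0.02 in H69M shNTC. Beyond that the lines parted: the classes up to 2000 nt and over 2000 nt had medians of 0.11 and -0.22 in H69 shNTC and 0.18 and 0.32 in H69M shNTC. Among all genes of H69 shNTC the medians thus rose with length only up to 1000 nt and fell above it.

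**Figure D4:**
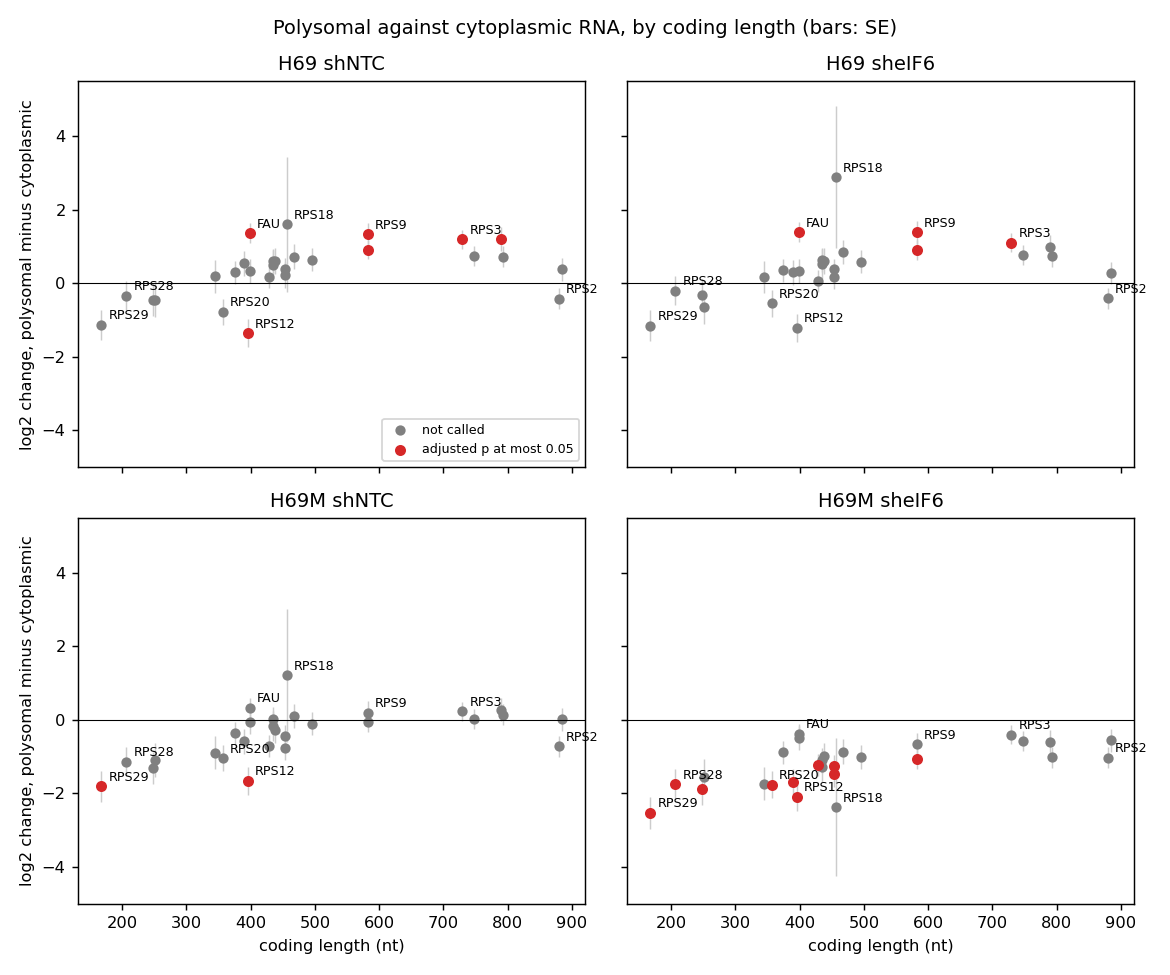
Log2 change of polysomal minus cytoplasmic RNA (vertical, bars are SE) against coding length in nt (horizontal) for the 28 members, in 1 panel per line and shRNA; red points passed at an adjusted p of at most 0.05. RPS12 and the short RPS29 lie among the lowest, most members over 500 nt lie higher, and the points as a whole lie lower in H69M than in H69.

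The difference in loading between the lines tests whether polysomal minus cytoplasmic RNA is lower in H69M than in H69. In control cells all 28 members were negative, with a median of -0.73 against 0.11 for all genes. None passed in edgeR, nor in DESeq2 or limma-voom, 5 had an unadjusted p of at most 0.05, and no gene of the 23100 was called (0%). The largest differences were -1.15 (SE 0.435, adjusted p = 0.469) for RPS9 and -1.13 for RPS15A, from the levels given above and RPS15A levels of 269.6 and 273 CPM (cytoplasmic) and 329.9 and 462 (polysomal) in H69 and 273 and 274 against 178 and 186 in H69M.

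Under sheIF6 the difference was negative in all 28 again, with a median of -1.59 against 0.06 for all genes; 22 had an unadjusted edgeR p of at most 0.05 and none passed (0% of all genes). With the block within each line 6 passed and were lower, beside 1.15% of all genes: RPS3A, RPS7, RPS9, RPS13, RPS15A and FAU. RPS3A, which sits by the mRNA exit, stood at 400.1 and 441 CPM in cytoplasmic and 630 and 777 in polysomal RNA of H69, and at 856 and 474 against 279.6 and 379 in H69M. RPS13 stood at 258 and 293 against 311 and 405 CPM in H69 and 311 and 229.8 against 94.5 and 134 in H69M. For both, polysomal libraries were above the cytoplasmic ones in H69 and below them in H69M, without overlap. DESeq2 called 14 and limma-voom none, and the share of all genes that DESeq2 called is not given here. Leaving out H69M sheIF6 cytoplasmic replicate 1 gave a median of -1.03, and leaving out its replicate 2 gave -1.95.

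Knockdown of EIF6 asks whether less of this factor changes the members' mRNA. No member passed in edgeR in either fraction of either line, at 0, 0.00433, 0.156 and 0.0649% of all genes called (H69 cytoplasmic, H69 polysomal, H69M cytoplasmic, H69M polysomal). The medians of the 28 members were 0.14, 0.09, 0.80 and 0.12 on the log2 scale against -0.01, 0.00, 0.00 and -0.01 for all genes. Unadjusted p-values of at most 0.05 were found for 0, 0, 19 and 0 members. The sign of the H69 polysomal median changed with the library left out: it was -0.07 without shNTC replicate 1, -0.14 without sheIF6 replicate 2, 0.36 without shNTC replicate 2 and 0.33 without sheIF6 replicate 1. DESeq2 called 2 members higher in H69M cytoplasmic RNA (RPS3A and RPS15) and none elsewhere; limma-voom and the block within each line called none.

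In H69M cytoplasmic RNA all 28 members were positive and in 25 both sheIF6 libraries were above both shNTC libraries, beside 20.4% of all genes. RPS15, whose protein lies in the head near the tRNAs, stood at 278 and 417 CPM in shNTC and 1602 and 527 in sheIF6. Both sheIF6 libraries were above the controls, the first by far more than the second, and the edgeR log2 change was 1.62 (SE 0.423, adjusted p = 0.201). Same-numbered libraries differed by a median of 1.32 (number 1, all 28 positive) and 0.18 (number 2, 25 positive). With sheIF6 replicate 1 left out the median was 0.37, and with replicate 2 left out it was 1.19. All 28 stayed positive in both. EIF6 stood at 161.4 CPM in sheIF6 replicate 1, against 165.1 in the lower control, and at 96.33 in replicate 2. The deeper total and the higher share of the members in replicate 1 move with this result. Their part in it and that of the EIF6 level were not tested.

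In cytoplasmic RNA of H69, 23 of 28 were positive and 15 did not overlap and were higher under sheIF6, beside 16.7% of all genes. RPS15A stood at 269.6 and 273 CPM in shNTC and 327 and 371 in sheIF6 (0.36), and RPS26 at 230.3 and 235 against 265 and 299.5 (0.28). RPS29 stood at 115 and 88.3 against 86.2 and 95.6 CPM (-0.16). The first 2 were higher without overlap, and RPS29 overlapped. In polysomal RNA of H69, RPS12 stood at 114 and 171 against 123 and 230.5 CPM (0.31), RPS26 at 236 and 296 against 266 and 368 (0.25) and RPS29 at 36.4 and 56.5 against 31.5 and 50.7 (-0.18). In each of them the second library of either shRNA was above the first, by more than the shRNAs differed.

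In polysomal RNA of H69M, RPS15 stood at 268 and 350.3 CPM in shNTC and 366 and 515 in sheIF6 (0.51). RPS21 stood at 27.2 and 53.7 against 38.4 and 76.4 CPM (0.50), RPS27A, another ubiquitin fusion, at 217 and 180 against 115 and 193 (-0.37) and FAU at 276 and 265 against 177 and 260 (-0.31). RPS15 was higher and FAU lower under sheIF6 without overlap; RPS21 and RPS27A overlapped. In 20 of 28 members the polysomal change was positive, and the median ran from -0.32 to 0.41 as each of the 4 libraries was left out, so its sign changed with the library.

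**Figure D5:**
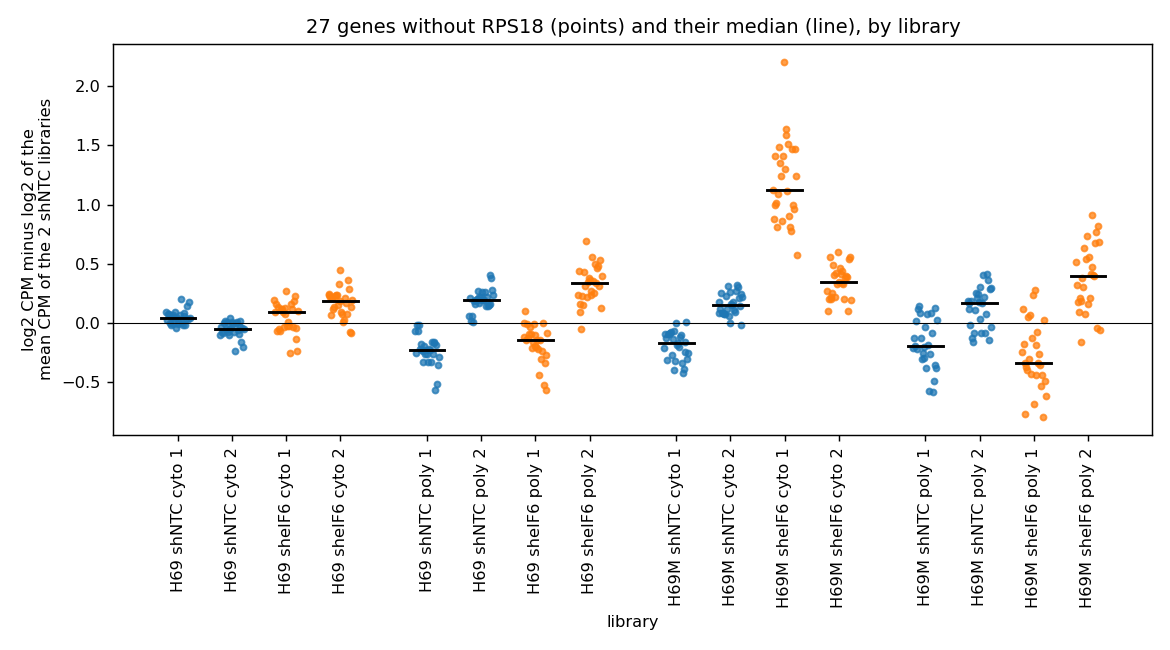
Log2 CPM of 27 members (points, without RPS18) in each library minus log2 of the mean of the 2 shNTC libraries of the same line and fraction; the black line is the median over members. H69M sheIF6 cytoplasmic replicate 1 stands above all other libraries, and in the polysomal groups replicate 2 lies above replicate 1 for both shRNAs.

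Replicates differed in the same direction for most members. In H69 polysomal RNA replicate 2 was above replicate 1 in 28 members of shNTC (median log2 0.42) and 26 of sheIF6 (0.47), and in H69M in 20 (0.37) and 28 (0.64). In H69M sheIF6 cytoplasmic RNA replicate 1 was above replicate 2 in all 28, and the median of replicate 2 minus replicate 1 was -0.85. The median over all genes was 0.00 in each of these groups. Members of 1 library share its deviation, so 28 equal signs are not 28 independent observations.

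Polysome association is the knockdown change of polysomal minus that of cytoplasmic RNA. In H69 its median was 0.01, with 15 members positive, and in H69M -0.72 with all 28 negative, against 0.00 and -0.01 for all genes. No member and no gene passed in either line (0%); 0 and 4 members had an unadjusted edgeR p of at most 0.05, and DESeq2, limma-voom and the block called none. Apart from RPS18, the H69 values ran from -0.25 for RPS15A to 0.23 for RPS20, and the lowest in H69M was -1.15 for RPS3A. RPS3A in H69M stood at 259.9 and 385 (shNTC) and 856 and 474 CPM (sheIF6) in cytoplasmic and 358 and 349.7 against 279.6 and 379 in polysomal RNA. The H69 median changed sign with the library left out, from -0.24 with 1 member positive (without sheIF6 polysomal replicate 2) to 0.26 with 25 positive (without shNTC polysomal replicate 2). The H69M median was -0.28 with cytoplasmic replicate 1 of sheIF6 left out and 0.04 without both sheIF6 libraries numbered 1, an omission chosen after the data were seen.

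The difference of the knockdown between lines had a median of 0.69 in cytoplasmic RNA, with all 28 members positive, and of -0.03 in polysomal RNA, against 0.02 and -0.03 for all genes. None passed in either fraction in edgeR, DESeq2 or limma-voom (0.0303 and 0.00433% of all genes called by edgeR), and 4 and 0 members had an unadjusted edgeR p of at most 0.05. RPS15 was the highest after RPS18 in cytoplasmic RNA, at 1.49 (SE 0.586, adjusted p = 0.936), with 492 and 465 CPM in shNTC and 503 and 545 in sheIF6 of H69. In polysomal RNA RPS21, FAU and RPS27A stood at 0.49, -0.49 and -0.39. The cytoplasmic median was 0.22 without H69M sheIF6 cytoplasmic replicate 1. The polysomal median ran from -0.39 with 3 members positive (without H69M sheIF6 polysomal replicate 2) to 0.25 with 22 positive (without H69 sheIF6 polysomal replicate 2).

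Large-subunit ribosomal protein mRNAs were measured in the same libraries. In polysomal RNA of control cells 34 of 47 fell in H69M against H69, with a median of -1.03 (18 of 28 and -1.10 for the small subunit), and loading in H69 had 13 higher and 1 lower with a median of 0.58. In H69M loading 2 of 47 fell in shNTC (median -0.36) and 11 in sheIF6 (-1.05), and none passed in any knockdown contrast.

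Of 20 other TOP mRNAs 12 fell in polysomal RNA of H69M control cells against H69 (median -0.93). The smallest adjusted p-values were those of HNRNPA1 (-1.23) and the translation initiation genes EIF3L (-1.28) and EIF3H (-1.59). None was called higher, but 3 were positive, the highest at 1.31. With the block within each line 1 was called higher, beside 21.4% of all genes. GAS5 stood at 19.2 and 43.7 CPM in H69 and 94.1 and 62.0 in H69M. Loading of the other TOP mRNAs in H69 shNTC rose for 6, such as HNRNPA1 (1.38), BTF3 (1.22) and EEF1B2 (1.18), and fell for PABPC1 (-1.36). In H69M shNTC PABPC1 (-1.07) and TPT1 (-0.99) fell and none rose. Of 37 small-subunit assembly factors 16 fell and 3 rose in polysomal RNA of H69M control cells. By adjusted p the first were FBL (-1.92), RIOK1 (-1.77) and IMP4 (-1.13) among those that fell and HEATR1 (1.47), UTP20 (0.97) and PDCD11 (0.66) among those that rose. Of 14 regulators of TOP mRNAs and mTOR, 5 rose there, led by RPTOR (1.49), MYC (2.39) and MTOR (1.05), and EIF4E fell (-0.81). In H69M shNTC RPTOR (1.16) and MTOR (1.16) were also higher in polysomal than in cytoplasmic RNA. The shares of all genes called are those given for the same comparisons above.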

How the data were processed

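RNA of 16 libraries (8 groups of 2) was sequenced after NEBNext Ultra library preparation, per the labels' protocols. The authors deposited 1 table of raw read counts per gene; STAR, HTSeq and GRCh38/hg38 are named, per the submitters' processing notes, and their versions and strand setting are not given in the sources used here. Every column matched 1 sample and the number of columns of no sample was 0. Library totals ran from 36005326 to 87269772 counts.

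Genes passing filterByExpr (minimum count 10; 23100 of 56832) were fitted in 1 model of 8 groups with edgeR 4.0.16 in R 4.3.3 (robust quasi-likelihood, TMM; 8 residual degrees of freedom, common dispersion 0.153), and Benjamini-Hochberg adjusted p-values of at most 0.05 over all genes were called. CPM are TMM-scaled and log2 changes are edgeR's estimates; log2 CPM with a prior count of 2 served only for differences between single libraries and for the pairing check. Coding length, exon overlap and gene positions come from GENCODE v29 models on GRCh38, and start windows from RefSeq GRCh38.p14. The tests were tested on simulated counts before use. The 28 members, the marker lists and the other gene lists were chosen with earlier results of these data known.

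Values in every library are printed for up to 6 called members per comparison, taken by p, or else for the 2 largest changes in each direction; of other lists, up to 3 genes per direction with the smallest p. Deviations from group means of same-numbered libraries correlated across genes by 0.168 to 0.280 within H69 (6 pairs of groups), 0.172 to 0.578 within H69M (6) and -0.107 to 0.046 between lines (16), so the numbers were taken to pair libraries within a line, and a fit with the replicate number as a block within each line stands beside results it changes (6 residual degrees of freedom, dispersion 0.0881). The 28 members did not follow such a pairing in H69M, where sheIF6 cytoplasmic RNA differed between replicates in the opposite direction to the other groups. In H69 the shNTC cytoplasmic group went against the others, with 20 of 28 members higher in replicate 1. Alternatives were other scalings, no filter or a stricter one (50 counts in 2 libraries), DESeq2 1.42.0, limma-voom (limma 3.58.1), 1 line alone and each library left out.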

Additional observations from a re-analysis of the deposited data

Results flagged for a closer look

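Polysomal minus cytoplasmic RNA differed between the lines under sheIF6 for 6 members when the replicate number was a block within each line, by edgeR's test of the difference itself (H69M minus H69). The log2 differences were -1.761 for RPS3A (adjusted p = 0.0497), -1.936 for RPS7 (0.0445), -1.985 for RPS9 (0.0445), -1.664 for RPS13 (0.0457), -1.958 for RPS15A (0.0494) and -1.775 for FAU (0.0445). Without the block none of the 28 passed. The block takes 1 replicate difference for all groups of a line, which the members shared in neither line. In H69M their median of replicate 2 minus replicate 1 was 0.31 in shNTC cytoplasmic, 0.37 in shNTC polysomal and 0.64 in sheIF6 polysomal RNA. In sheIF6 cytoplasmic RNA of H69M it was -0.85. In H69 it was -0.09 in shNTC cytoplasmic, 0.12 in sheIF6 cytoplasmic, 0.42 in shNTC polysomal and 0.47 in sheIF6 polysomal RNA. The same difference in control cells was not called for any member with or without the block. H69M sheIF6 cytoplasmic replicate 1 holds the deepest total and the highest share of these mRNAs, and the members' median difference was -1.03 without it and -1.59 with it; its part in the calls was not tested further.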

How the results depend on the processing

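With 2 libraries per group, the count of called members moved with single libraries, and so did that of all genes. Leaving out each of the 16 in turn gave 0 to 2 members in knockdown of H69M cytoplasmic RNA, 0 to 6 in polysomal against cytoplasmic RNA of H69 with either shRNA, 0 to 2 in H69M shNTC and 0 to 15 in H69M sheIF6, 0 to 14 in the loading difference under sheIF6, 5 to 19 and 4 to 20 in polysomal RNA between lines (shNTC, sheIF6) and 0 to 8 in cytoplasmic RNA between lines under sheIF6. Scaling by library totals gave 5 members in H69M shNTC loading and 3 between lines in shNTC cytoplasmic RNA, where RPS27 turned to -0.0872. No filter gave 2 between lines in sheIF6 cytoplasmic RNA. DESeq2 gave 2 in H69M cytoplasmic knockdown, 7 in H69 sheIF6 loading, 14 in the loading difference under sheIF6 and 3 between lines in sheIF6 cytoplasmic RNA. The replicate block within each line gave 6 in the loading difference under sheIF6 and 2 between lines in sheIF6 cytoplasmic RNA; it moved no other count by over 1.5 times. Fits of 1 line alone gave 12 and 11 in H69 loading (shNTC, sheIF6) and 0 and 0 in H69M. With both H69M sheIF6 libraries numbered 1 left out, chosen after seeing the data, H69 sheIF6 loading had 7, H69M sheIF6 loading 0, shNTC cytoplasmic RNA between lines 1 and sheIF6 polysomal RNA between lines 9. The causes were not tested. Counts without a share of all genes beside them are not read as results about the members.

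RPS18 turned to 3.1375 (limma-voom) and 0.1531 (replicate block) in H69 polysomal knockdown and to -2.6399 (limma-voom) in the polysomal knockdown difference. With 1 library left out, values that changed sign ranged as follows. In knockdown of H69 cytoplasmic RNA, RPS18 from -3.268 to 1.3944, RPS29 from -0.3336 to 0.0432. In polysome association under knockdown, H69, RPS18 from -1.9177 to 9.8866, RPS20 from -0.213 to 0.5643, RPS15A from -0.557 to 0.0139. In H69M against H69, shNTC cytoplasmic RNA, RPS18 from -2.5618 to 2.366, RPS27 from -0.1894 to 0.2725. In knockdown of H69 polysomal RNA, RPS18 from -1.5214 to 8.0766, RPS29 from -0.5623 to 0.1735, RPS12 from -0.2072 to 0.693. In knockdown difference between lines, polysomal RNA, RPS18 from -7.5875 to 2.0098, RPS21 from -0.093 to 1.061. In H69M against H69, sheIF6 cytoplasmic RNA, RPSA from -0.6446 to 0.21, FAU from -0.259 to 0.1256. In EIF6 knockdown in H69M, polysomal RNA, RPS21 from -0.0801 to 1.0739. Of 734 values of named members under the other alternatives 683 kept their direction and side of the threshold, and of 1232 with a library left out 1103 did. Many of the libraries left out lie outside the comparison and move its values little. Many named members were also not called to begin with, so these counts are high by construction.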
